A study of Mus musculus with 6 samples.

Results

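Phosphatidylcholine is the main lipid of lung surfactant, and 10 genes of its synthesis and acyl chain remodelling were followed in isolated mouse alveolar type II cells. They were chosen by name: the choline kinase genes Chka and Chkb, the cytidylyl transferase genes Pcyt1a and Pcyt1b, the cholinephosphotransferase genes Chpt1 and Cept1, and the acyltransferase genes Lpcat1, Lpcat2, Lpcat3 and Lpcat4. Every probe set whose annotation gives exactly 1 of these symbols was a member, which made 24 of the 45101 probe sets on the array. All 10 genes had at least 1, out of 18193 genes with a probe set of their own. The type II cells came from lungs of mice aged 2 months. One group was Insig1 ∆/∆ /Insig2 -/-, carrying SpC-rtTA, Otet-CRE and floxed Insig1, so that Insig1 is removed by a doxycycline-dependent Cre whose driver is the surfactant protein C promoter. The other, Insig1 flox/flox /Insig2 -/-, was the control and lacked either SpC-rtTA or Otet-CRE. By their labels both groups were Insig2 -/- and both had doxycycline in the womb, between E6.5 and E12.5. Only the deleted group had the whole Cre system, whose own effect and that of losing Insig1 cannot be told apart. Each array held 1 pool of RNA, with 3 independent pools per genotype. How many mice made up a pool is not stated in the labels.

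INSIG1 and INSIG2 hold SCAP and the SREBP transcription factors in the endoplasmic reticulum, and SREBPs switch on the genes for making sterols and fatty acids. Phosphatidylcholine is made de novo along the Kennedy pathway: choline is phosphorylated, activated to CDP-choline, and joined to diacylglycerol. In the Lands cycle a phospholipase then removes an acyl chain and a lysophosphatidylcholine acyltransferase puts on another, which sets how saturated the lipid is. Type II cells use both routes to make the dipalmitoyl phosphatidylcholine that they store in lamellar bodies and secrete. The comparison asks how transcripts of the de novo steps and of the remodelling enzymes differ when Insig1 is lost in addition to Insig2.

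Lpcat3 rose in Insig1-deleted pools, and it was the only 1 of 23 tested member probe sets past the threshold. Values are MAS5 signals on a linear scale, and log2 fold changes are those of deleted over control pools from limma, with an adjusted p under 0.05 over all 27022 probe sets tested as the threshold. Among all probe sets tested 0.315% were called higher and 0.0074% lower, or 0.322% in all. None of the 14 de novo probe sets tested was called by limma, and 1 of the 9 Lpcat probe sets was. At an unadjusted p under 0.05 there were 2 member probe sets higher and 1 lower, against 4.84% and 5.35% of all probe sets. The median log2 fold change over the 23 was 0.065, beside -0.023 over all probe sets tested, and their median size was 0.13 beside 0.17. Groups did not overlap for 5 of the 23 (3 higher, 2 lower), and 15.6% of all probe sets tested had groups that did not overlap. For 18 of the 23 the 95% interval excluded a 2-fold change in either direction. The 24th probe set, a dim one of Pcyt1b, lay below the filter on low signal (271).

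**Figure D1:**
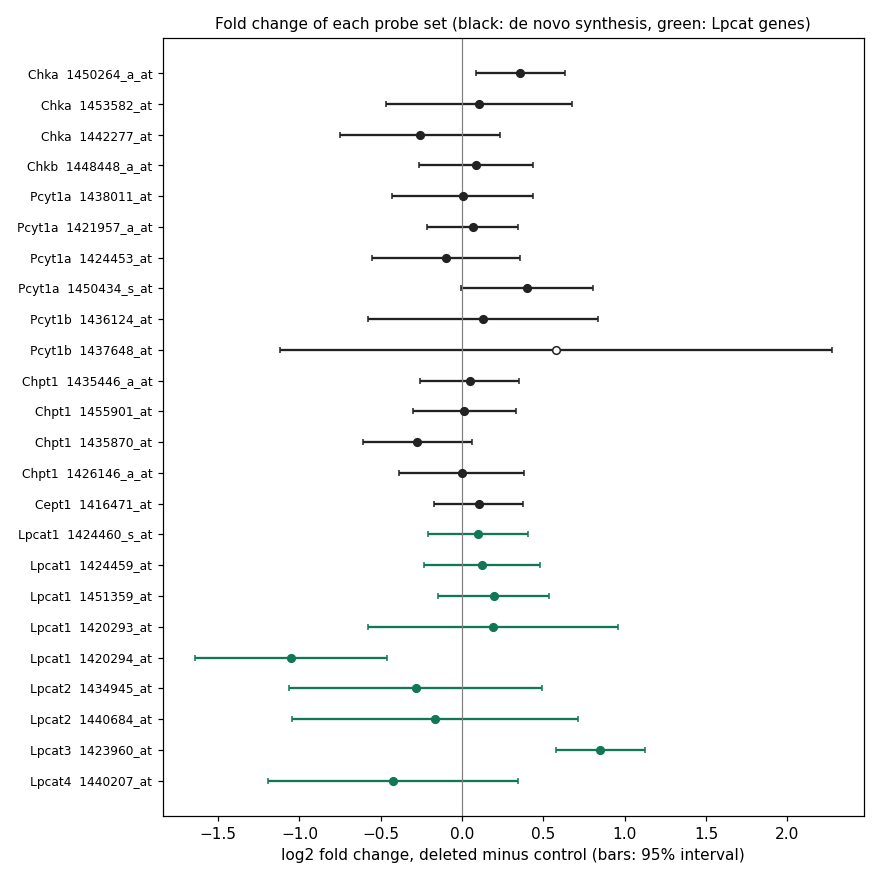
Log2 fold change (deleted minus control, horizontal axis) of the 24 probe sets, with bars for the 95% interval from limma, in black for de novo synthesis genes and green for Lpcat genes. The open point is the Pcyt1b probe set below the filter, fitted without the filter; Lpcat3 at 0.85 lies apart from 0, and most others have intervals that cross it.

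The array of control replicate 3 differed most from the rest: its score on the leading principal component, with 31% of the variance, was -61.5, and the other 5 pools scored between -7.6 and 24.5. Pools of 1 group correlated at 0.945 to 0.978 in log2 signal, and pools of different groups at 0.948 to 0.963. Insig1 itself had signals of 2300.1, 3325 and 2959.5 in control pools and 1252.5, 1442 and 1750.4 in deleted pools. Every deleted pool lay below every control, with a log2 fold change of -0.95 ± 0.18 (SE, limma adjusted p = 0.096). The labels do not say whether that probe set falls within the floxed part, so it checks the genotypes only in part. Insig2 probe sets had means of 2249, 1377 and 818 in controls and 1980.5, 1168 and 681 in deleted pools. Signal for Insig2 thus remained in both groups, and its source was not tested.

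The first step of the Kennedy pathway is the phosphorylation of choline. Chka encodes choline kinase alpha, and its brightest probe set had signals of 12980.3, 13193 and 12817 in control pools 1 to 3 and of 14279, 18332 and 17658 in deleted pools 1 to 3. All deleted pools lay above all controls, but deleted replicate 1 was close to the controls. The log2 fold change was 0.36 ± 0.12 (SE; 95% interval 0.085 to 0.63), and it did not pass (limma adjusted p = 0.37). The other Chka probe sets did not repeat that separation. The second went from 2902, 5629 and 2707 in controls to 3339, 4143 and 3975 in deleted pools, where control replicate 2 was the highest of all 6, for a log2 fold change of 0.10 (-0.47 to 0.67). The third gave -0.26 (-0.75 to 0.23). Chkb encodes choline kinase beta, and 1 probe set names it alone. Its signals were 4315, 3369 and 5078 in controls and 4543, 4288.5 and 4519.5 in deleted pools. The deleted pools fell inside the wider spread of the controls, with a log2 fold change of 0.085 (-0.27 to 0.44).

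The phosphocholine cytidylyl transferase, known as CCT, makes CDP-choline and is the step that usually limits the rate of the pathway. Pcyt1a encodes its alpha form, the main one in lung, and had 4 probe sets. On the brightest, the controls had 5596, 3233 and 5077 and the deleted pools 4652, 4553 and 4362.5. Means were nearly equal at 4635 ± 1242 and 4522.5 ± 147 (SD, n = 3 each), for a log2 fold change of 0.003 ± 0.19 (SE) and a 95% interval from -0.43 to 0.44, or 0.742-fold to 1.35-fold. Control replicate 2 was the lowest of all 6 pools, and without it the log2 fold change was -0.24, while without control replicate 1 it was 0.16. The other Pcyt1a probe sets gave 0.065 (-0.22 to 0.35), -0.10 (-0.56 to 0.35) and 0.40 (-0.006 to 0.80). The last had signals of 1376, 1134 and 934.5 in controls and 1558.5, 1556 and 1378 in deleted pools. Its groups barely failed to touch, and the adjusted p was 0.50 (limma). Pcyt1b, the beta form known from brain and gonads, was dim, and its brighter probe set (292 ± 78 in controls, 313 ± 39.8 in deleted pools) lay close to the filter. It gave 0.13 (-0.58 to 0.84). The probe set of Pcyt1b below the filter had signals from 19.5 to 71.9 in controls and from 35.5 to 90.9 in deleted pools.

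The last de novo step joins phosphocholine to diacylglycerol. Chpt1 encodes cholinephosphotransferase 1 and had 4 probe sets, of which the brightest went from 3668, 4237 and 3399 in controls to 3799, 4296 and 3562 in deleted pools. The groups overlapped fully, with a log2 fold change of 0.046 (-0.26 to 0.35). A pair of the other probe sets gave 0.014 and -0.002. The remaining one had signals of 1765.5, 1638 and 1879 in controls and 1351, 1384 and 1634 in deleted pools. Its deleted pools were all below the controls, by a margin of a few units between deleted replicate 3 and control replicate 2, and it did not pass (-0.28 ± 0.15, limma adjusted p = 0.58). Cept1 encodes an enzyme that takes CDP-choline or CDP-ethanolamine. Its signals were 7714, 8132 and 8942 in controls and 9495, 9287 and 7846.5 in deleted pools, with deleted replicate 3 among the controls, and the log2 fold change was 0.10 (-0.17 to 0.37).

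**Figure D2:**
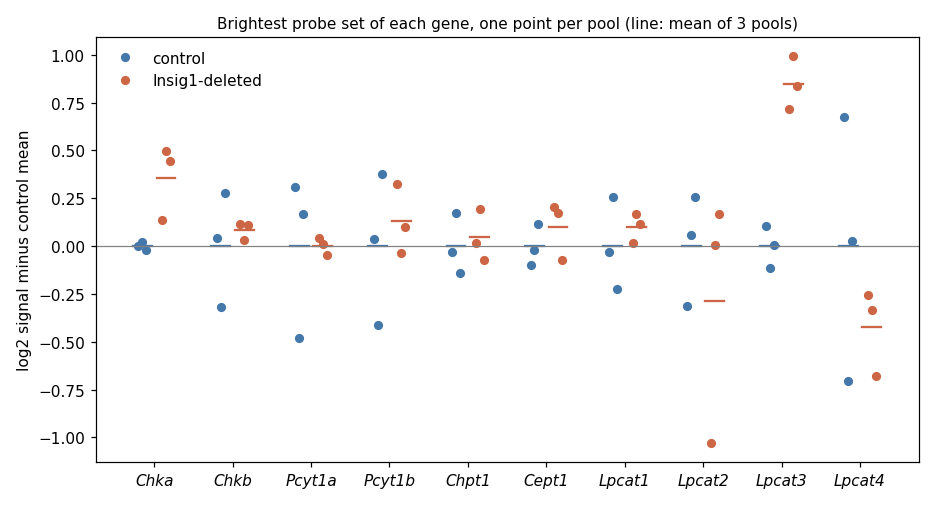
Log2 signal of the brightest probe set of each of the 10 genes, less the mean of its 3 control pools, with 1 point per pool and a line at each group's mean. The deleted pools stand clear of the controls for Lpcat3 and lie just above them for Chka, and the groups overlap for the other 8 genes.

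Among the remodelling enzymes, Lpcat3 encodes an acyltransferase of the MBOAT family that prefers polyunsaturated acyl chains and is known as a target of the LXR nuclear receptors. Its 1 probe set had signals of 5232, 4496 and 4883 in control pools and 7991, 9674 and 8693 in deleted pools. The groups were well apart, as the lowest deleted pool was 1.53 times the highest control. Relative to the control mean the deleted pools stood at 1.64, 1.99 and 1.78, and the controls between 0.923 and 1.07. Means were 4870.4 ± 368.5 and 8786 ± 846 (SD, n = 3 each). That is a 1.80-fold increase, a log2 fold change of 0.85 ± 0.12 (SE; 95% interval 0.58 to 1.12) with a limma adjusted p of 0.0245 over all probe sets and of 0.0154 over 12952 genes, each represented by its brightest probe set, where 0.649% of genes were called. Of all probe sets tested, 1.33% had a log2 fold change at least this high, and its rank by p was 59. The direction held in all 15 alternative fits, between 0.78 and 0.93, but the call depended on single pools. The adjusted p was 0.066 without control replicate 1, 0.079 without deleted replicate 1, 0.19 without deleted replicate 2 and 0.16 without deleted replicate 3. It was 0.023 without control replicate 2 or 3, and 0.17 without an intensity trend in limma. With 1 probe set, no other probe set of Lpcat3 could be compared.

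Macrophage markers, like Lpcat3, were mostly higher in deleted pools. Of 18 listed macrophage markers 16 were tested, all 16 had log2 fold changes above 0 and 7 rose (median 1.03). Of all genes represented by their brightest probe set, 0.448% were called higher. The list summed to 50724, 72874 and 64463 in control pools 1 to 3 and 134748, 120994 and 129028 in deleted pools 1 to 3. The groups did not overlap. Within each group the pool with the highest Lpcat3 signal had the lowest sum, though single genes did not all follow that order. The lysosomal glycoprotein gene Cd68 stood at 1615 in controls and 3226 in deleted pools, and the scavenger receptor gene Marco at 812 and 3654. Among deleted pools Marco was highest in replicate 2 (3620, 4061 and 3280 in deleted pools 1 to 3), as Lpcat3 was. Whether macrophage RNA has a part in the Lpcat3 result was not tested. In such isolates a change in the share of a cell type and a change in RNA per cell cannot be told apart. The macrophage receptor gene Cd163 was dim, with means of 204 in controls and 284 in deleted pools, and lay below the filter. Fitted without the filter, its log2 fold change was below 0, at -0.11 ± 0.865 (SE). Its signals were 36.5, 407.3 and 408.3 in deleted pools 1 to 3.

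Lpcat1 encodes the acyltransferase that type II cells use to place palmitate on lysophosphatidylcholine, and it had 5 probe sets. The brightest had signals of 71672, 87330 and 62572 in controls and 73926, 82254 and 79164 in deleted pools. Deleted pools lay inside the range of the controls, and control replicate 3 was the lowest. The log2 fold change was 0.099 ± 0.14 (SE; -0.21 to 0.41, limma adjusted p = 0.86), and -0.014 without control replicate 3. Another pair of bright probe sets, which were designed from the same sequence record and so are not independent, gave 0.12 (-0.23 to 0.48) and 0.19 (-0.15 to 0.54). Without control replicate 3 these were -0.051 and 0.015. Array maxima were 141333 to 197205, so these 3 lay toward the top of the range. The other 2 share a different record and were dim. One gave 0.19 (-0.58 to 0.96), which was 0.56 without control replicate 2 and -0.089 without deleted replicate 1. The other had signals of 537.7, 630.9 and 534.5 in controls and 217.9, 284.9 and 327.7 in deleted pools. There every deleted pool was below every control, and the log2 fold change was -1.05 ± 0.26 (SE; -1.64 to -0.46), but it did not pass (limma adjusted p = 0.23). The dimmest Lpcat1 probe set differed in sign from the 4 brighter ones, and which transcript it measures is not stated in the annotation.

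**Figure D3:**
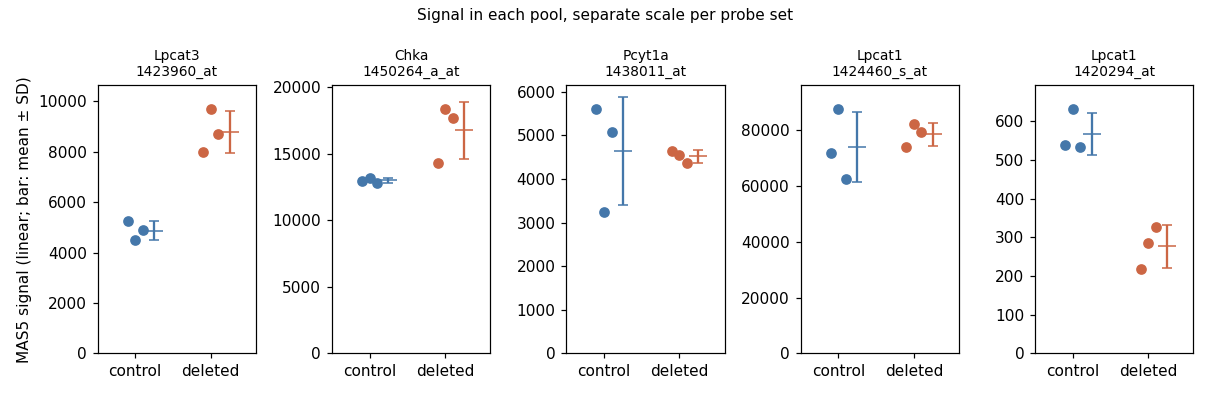
MAS5 signal (linear axis from 0, its own scale in each panel) in 3 control and 3 deleted pools for Lpcat3, the brightest probe sets of Chka, Pcyt1a and Lpcat1, and the dimmest of Lpcat1, with the mean ± SD beside the points. Lpcat3 is higher in every deleted pool, the brightest Lpcat1 probe set overlaps, and its dimmest is lower in every deleted pool.

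Lpcat2 encodes an enzyme that also makes platelet-activating factor. Its brighter probe set had signals of 388.8, 501.7 and 577 in controls and 236.5, 483.9 and 542.4 in deleted pools, so that deleted replicate 1 alone lay below the controls. The log2 fold change was -0.29 ± 0.35 (SE; -1.06 to 0.49), and it was 0.086 without deleted replicate 1. The dimmer gave -0.17 (-1.04 to 0.71). As fold changes the intervals ran from 0.478 to 1.41 and from 0.485 to 1.64. Lpcat4, which encodes an acyltransferase that favours oleoyl chains, had 1 probe set. Its signals were 946.5, 363 and 603.8 in controls and 495.5, 470.4 and 369.5 in deleted pools. Control replicates 1 and 2 enclosed all the deleted pools, and the log2 fold change of -0.42 ± 0.34 (SE; -1.19 to 0.34) did not pass. It was -0.084 without control replicate 1 and -0.78 without control replicate 2. Neither gene was measured precisely enough at these signals to exclude a 2-fold decrease.

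Lpcat3 was set against each of the other 9 genes within each array, which removes the scaling of the array. The log2 difference between Lpcat3 and the brightest probe set of the other gene was higher in every deleted pool than in every control for all 9 genes. The gain in that difference was lowest against Chka at 0.49, stood at 0.75 against Lpcat1, 0.85 against Pcyt1a and 0.80 against Chpt1, and was highest against Lpcat4 at 1.27. Each exact two-sided permutation test gave p = 0.1, the smallest that 3 pools against 3 allow, and 0.1 when adjusted over the 9 pairs. The pairs all contain the same Lpcat3 values, and Lpcat3 was set apart with its increase already known, so they are a description.

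The promoters of Lpcat3, the member that rose, and of Lpcat1 and Pcyt1a, whose enzymes are known for remodelling and for the limiting step in type II cells, are shown for comparison. They are the 250 bases before the annotated start from RefSeq (GRCm38.p6), 5′ to 3′ on the gene's strand, which is the plus strand for all 3. They lie at chr6:124662854-124663103 for Lpcat3, chr13:73466981-73467230 for Lpcat1 and chr16:32430671-32430920 for the first of 3 Pcyt1a starts. Capitals mark matches on either strand to the GC box GGGCGG, to CCAAT, and to the last 9 bases of the sterol regulatory element of the LDL receptor gene.

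Lpcat3: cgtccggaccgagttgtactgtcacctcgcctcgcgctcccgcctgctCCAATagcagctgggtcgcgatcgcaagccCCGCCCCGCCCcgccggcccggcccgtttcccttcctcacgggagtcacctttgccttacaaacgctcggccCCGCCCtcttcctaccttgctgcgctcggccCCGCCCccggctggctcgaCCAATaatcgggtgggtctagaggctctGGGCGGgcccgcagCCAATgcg

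Lpcat1: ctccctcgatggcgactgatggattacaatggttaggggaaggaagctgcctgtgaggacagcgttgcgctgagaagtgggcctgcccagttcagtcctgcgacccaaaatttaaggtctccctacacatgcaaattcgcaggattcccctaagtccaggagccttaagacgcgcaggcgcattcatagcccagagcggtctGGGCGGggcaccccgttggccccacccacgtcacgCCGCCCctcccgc

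Pcyt1a: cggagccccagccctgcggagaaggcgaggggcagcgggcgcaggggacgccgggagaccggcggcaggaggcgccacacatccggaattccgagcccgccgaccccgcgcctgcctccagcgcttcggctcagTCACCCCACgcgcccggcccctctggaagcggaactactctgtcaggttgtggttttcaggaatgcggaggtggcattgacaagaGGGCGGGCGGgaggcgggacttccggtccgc

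The sterol regulatory element, written ATCAC followed directly by CCCAC, is the SREBP binding sequence of the LDL receptor promoter. It matched none of the 15 promoters of the 10 genes and 0.0731% of the 32851 mouse promoters of the same length. Its last 9 bases, a search added after the Pcyt1a sequence was seen, matched 2 of the 15, both overlapping windows of Pcyt1a, and 0.496% of all promoters. In the window shown the match begins 116 bases before the start. The 4 Pcyt1a probe sets had log2 fold changes from -0.10 to 0.40, none of them called, and any role of the match was not tested. The direct repeat bound by LXR, AGGTCA repeated after 4 free bases, matched none of the 15 and 0.0152% of all, and the E-box CACGTG none and 6.02%. Lpcat3 held 5 GC boxes, 2 of them overlapping, and 3 CCAAT matches, while Lpcat1 held 2 GC boxes and no CCAAT. Pcyt1a held 2 overlapping GC boxes. GC boxes were in 11 of the 15 promoters and 32.7% of all, and CCAAT in 7 of the 15 and 33.8% of all. Some of the 15 are overlapping windows of 1 gene (Pcyt1a, Cept1), so they are not independent. The share of G and C was 70.0% for Lpcat3, 60.8% for Lpcat1 and 71.6% for the Pcyt1a window shown. The median over all promoters was 52.4%. These are matches of letters in a short window and no measure of binding.

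Other genes of phosphatidylcholine supply and turnover were taken from 7 lists, in which 58 of 71 genes were tested on their brightest probe set. Of these 1 rose and 0 fell by limma over all probe sets, where 0.448% of genes so represented were called higher. At an unadjusted p under 0.05, 9 were higher and 6 lower, against 5.93% and 5.95% of genes so represented. The gene that rose was Lpin1, whose phosphatidic acid phosphatase makes the diacylglycerol used by Chpt1 and Cept1 enzymes. It went from 2830 ± 152 in controls to 7106 ± 966 in deleted pools (SD, n = 3 each). Its log2 fold change was 1.32 ± 0.13 (SE, limma adjusted p = 0.0061), and it passed in each fit except those without deleted replicate 2 and without an intensity trend. The other 10 tested genes of diacylglycerol supply did not pass, and the list's median was 0.031. None of 5 tested choline uptake genes passed (median -0.035), with the choline transporter-like genes Slc44a2 at 0.26 and Slc44a4 at -0.19. Of the 4 in the ethanolamine branch, Pcyt2, the ethanolamine counterpart of Pcyt1a, stood at 0.80 ± 0.18 (SE, limma adjusted p = 0.17) and the methyltransferase gene Pemt at -0.32.

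None of 8 other lysophospholipid acyltransferase genes tested passed by limma (median -0.069), with 1 lower at an unadjusted p under 0.05. That was Mboat1, a relative of Lpcat3 in the MBOAT family, at -0.71 ± 0.21 (SE, limma adjusted p = 0.29), and it passed without control replicate 2 (-0.95, adjusted p = 0.022). Agpat3 stood at 0.25. Of 19 phospholipase and lysophospholipase genes none passed (median 0.023). Nearest were Pla2g7, which encodes the hydrolase of platelet-activating factor, at 1.45 ± 0.27 (SE, limma adjusted p = 0.080), and Pld1, a phospholipase D gene, at 0.83 ± 0.20 (0.22). None of 8 genes for phosphatidylcholine transfer and export passed (median 0.025), where the sphingomyelin synthase gene Sgms2, whose enzyme uses phosphatidylcholine, stood at -0.95 ± 0.26 (limma adjusted p = 0.26) and Atp8b1 at -0.33. Of 3 choline oxidation genes Chdh stood at -0.50 and Sardh at -0.46, and none passed.

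The type II cell label was checked on 14 markers, of which 13 had a probe set. None was called different by limma. Their summed signal ran from 782427 to 938814 in controls and from 784660 to 923547 in deleted pools, so the total overlapped between groups. On the log2 fold change scale 10 of the 13 were above 0 (median 0.10). The surfactant protein gene Sftpc was one of the others, with a mean of 120117 in controls and 104760.2 in deleted pools. At an unadjusted p under 0.05 there were 2 higher and 0 lower, Il33 at 0.67 and Muc1 at 0.54 (limma adjusted p = 0.44 and 0.47). Every deleted pool lay above every control for Muc1 and Etv5, and control replicate 3 was the lowest pool for all 3 of these genes. Markers of other cells were present too, and Scgb1a1 of the airway list was brighter than any type II marker. The brightest type II marker, Sftpa1, had means of 136227 in controls and 138630 in deleted pools. The airway list summed to 445120.0 to 583423 in controls and 367579 to 476572 in deleted pools, with the club cell gene Scgb1a1 at 174131 and 160800 and all 11 genes below 0 on the log2 fold change scale. Of these 2 fell, Sox2 at -0.83 and Ccdc153 at -1.18, the only 2 of the 27022 probe sets tested that were called lower. The neutrophil list summed to 2352 to 3908 in controls and 5078 to 8013 in deleted pools. Only S100a8 (1.01) and S100a9 (0.95) of its 7 genes were tested, and neither was called. Fitted without the filter, the dim Csf3r stood at 0.92, Mpo at -0.11 and Cxcr2 at -0.67, and 2 genes had no probe set. The lymphocyte list summed to 9849 to 20702 in controls and 16953 to 19567 in deleted pools. Its 10 tested genes were all above 0 (median 0.44), and none was called. Type I (median 0.034), endothelial (-0.047) and mesenchymal lists (-0.23) had overlapping sums, as had the airway and lymphocyte lists. In the endothelial list 1 of 10 genes rose, the carbonic anhydrase gene Car4, from 3042 ± 493 in controls to 5601 ± 345 in deleted pools (SD, n = 3 each; log2 fold change 0.89, limma adjusted p = 0.046). The part of these cells in the Lpcat3 result was not tested.

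**Figure D4:**
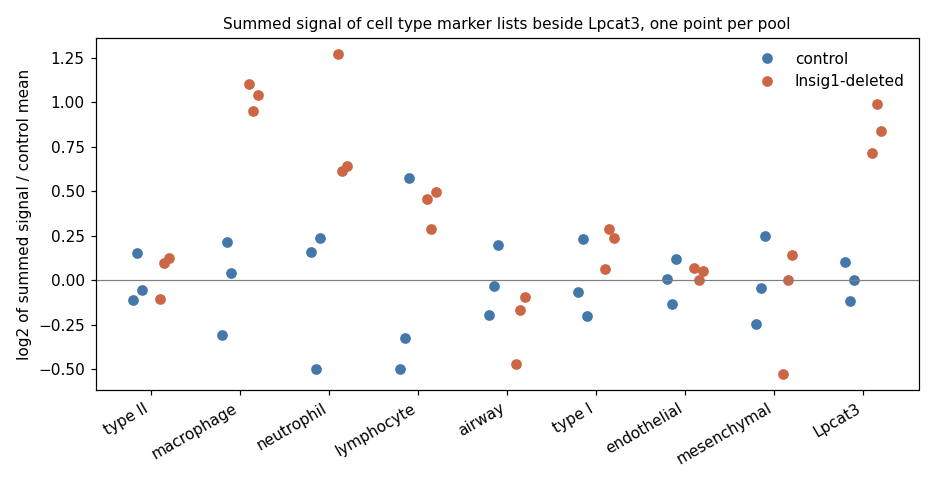
Log2 of the summed signal of each cell type marker list over its control mean, with 1 point per pool, beside the same for Lpcat3. The macrophage and neutrophil lists and Lpcat3 are higher in all 3 deleted pools than in any control pool. The type II, lymphocyte, airway, type I, endothelial and mesenchymal lists overlap between groups. Only 2 of the 7 listed neutrophil genes, S100a8 and S100a9, passed the filter.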

How the data were processed

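Total RNA of isolated type II cells was labelled with biotin following Affymetrix methods, per the labels' protocols. The authors deposited MAS5 signal intensities of probe sets, per the submitters' processing notes (no version given). Each array has the same trimmed mean (1500), and MAS5 treats arrays singly. Dim probe sets have noisy log ratios. Array medians ran from 426 to 479. Detection calls were not used here.

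After a floor of 1 the log2 of each signal was used, without further normalization. Probe sets with a mean log2 signal under the 40th percentile of non-control probe sets (8.08) were left out, which kept 27022. The test of deleted against control pools was limma's (3.58.1, R 4.3.3; lmFit and then eBayes, whose prior followed the mean intensity). It was two-sided and Benjamini-Hochberg adjusted over all of these. P-values reflect how far pools differ. The number of arrays limits the precision. The fit was tested on simulated data.

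Gene names came from the platform annotation. The members and lists were chosen with earlier results of these data known. The text names every member probe set, each pathway list gene past the threshold, and otherwise the 2 with the smallest p in a list. In the phosphatidylcholine pathway lists 6 genes had no probe set here and 7 lay below the filter. Alternatives were quantile normalization, a common median, log2 of the signal plus 16, no trend, array weights, other filters, 1 probe set per gene, the pool number as a block and each pool left out. Figures were drawn with matplotlib 3.10.9.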

Additional observations from a re-analysis of the deposited data

How the results depend on the processing

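Lpcat3 had the same direction under all 15 alternatives, and no other member probe set was called under any of them at an adjusted p under 0.05. The number called was 0 without an intensity trend, 0 to 1 with a pool left out, and 3 at an unadjusted p under 0.05. Over all probe sets 87 were called, against 4 without an intensity trend, 170 with array weights, 168 at an adjusted p under 0.1, 2752 at an unadjusted p under 0.05, and 3 (without deleted replicate 2) to 461 (without control replicate 2) with a pool left out, where each of the 6 pools moved the count by over 1.5 times. The pathway lists had 1 call, against 2 with a shift to a common median, 2 with array weights (Pla2g7 added in both), 0 without an intensity trend and 0 (without deleted replicate 2) to 4 (without control replicate 2, adding Mboat1, Pld1 and Pla2g7) with a pool left out. Fewer pools leave fewer degrees of freedom; the cause of the other shifts was not tested.

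Deviations of same-numbered pools correlated at 0.11, 0.054 and 0.13. Differently numbered pools were not compared, so these values cannot decide whether the numbers pair the pools. The labels do not say that a pool number marks a litter, batch or day. With the number as a replicate block 145 probe sets were called, Lpcat3 had an adjusted p of 0.036, and no call among members or pathway lists changed.

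Of 327 log2 fold changes of members under alternatives, 28 changed sign, all for probe sets not called (0.29 or less in size). Probe sets are named here by their order of brightness in controls. The first of Pcyt1a gave -0.013 with quantile normalization and -0.069 with array weights, the second of Chpt1 -0.017 with array weights, and the dimmest of Chpt1 0.012 with quantile normalization and 0.076 with a common median. With a pool left out the ranges were -0.088 to 0.44 (second of Chka), -0.073 to 0.22 (Chkb), -0.24 to 0.16, -0.006 to 0.11 and -0.30 to 0.050 (first 3 of Pcyt1a), -0.077 to 0.32 (first of Pcyt1b), -0.029 to 0.13, -0.049 to 0.085 and -0.12 to 0.10 (first, second and dimmest of Chpt1), -0.014 to 0.23, -0.051 to 0.27 and -0.089 to 0.56 (first, second and next to dimmest of Lpcat1), and -0.51 to 0.086 and -0.39 to 0.20 (both of Lpcat2). Those that kept their sign but moved by over 1.5 times ran from -0.45 to -0.042 (dimmest of Chka), 0.26 to 0.54 (dimmest of Pcyt1a), 0.050 to 0.19 (Cept1), 0.015 to 0.29 (the third of Lpcat1) and -0.78 to -0.084 (Lpcat4).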

Other observations

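A further probe set names Chkb together with Cpt1b and Gm44502, so it was no member. It had signals of 291.2, 388 and 284.1 in controls and 284.1, 345.9 and 275.1 in deleted pools, and its log2 fold change was -0.083 (95% interval -0.73 to 0.56).

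The log2 SD was larger over control than over deleted pools for 15 of the 23 member probe sets tested (65.2%), and for 65.7% of all probe sets tested. The control pool farthest from the other 2 was replicate 2 for 15 of the 23, replicate 3 for 6 and replicate 1 for 2. Of the 5 genes with several probe sets tested, 4 (Chka, Pcyt1a, Chpt1 and Lpcat1) had probe sets on both sides of 0.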
